A study of Mus musculus with 23 samples.

Results

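Kinesins are motor proteins that couple ATP hydrolysis to movement along microtubules or to their disassembly. In neurons, which no longer divide, kinesin-1, kinesin-2 and kinesin-3 motors carry vesicles, mitochondria and other cargo into axons and dendrites. Another set of kinesins assembles the mitotic spindle, moves chromosomes and completes cytokinesis, and its genes are expressed mainly by dividing cells. The members described here are the protein-coding genes whose symbol is Kif followed by a number and at most 1 letter, or Kifc followed by a number, and that had at least 10 raw counts in at least 10 of 23 libraries. Of 42 such symbols in the GRCm39 annotation and in the count tables, which list 56941 genes, 37 met the rule. They were placed in 3 classes by their known roles, with 17 transport kinesins, 12 mitotic kinesins and 8 other kinesins of cilia, centrioles, signalling or microtubule disassembly in neurons. The 5 symbols below the count rule were Kif2b, Kif6, Kif12, Kif19b and Kif28.

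RNA was sequenced from primary hippocampal cultures of newborn (P0) homozygous Nedd8cKO mice, which carry loxP sites around exons 2 and 3 of Nedd8, the gene of a ubiquitin-like protein modifier. All cultures carried this floxed allele. On day 1 in vitro they received a lentivirus for RFP alone (RFP) or for CRE together with RFP (CRE), driven by the neuronal Synapsin1 promoter, so that the recombinase was made in neurons, while other cells of the dish were not its direct target. The labels give 12 days in culture and the study's methods 13 days, and per the study the sex of the pups was not determined. The comparison used 11 CRE and 10 RFP libraries, which carry a number from 1 to 3 read here as the culture. Libraries with the same number may come from the same culture, so p-values measure the spread between these libraries.

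Total gene counts ran from 7430401 to 17112815 in these 21 libraries. The targeted gene was lower in every CRE library, with Nedd8 at 44.1 to 76.0 CPM (counts scaled to a common library size with TMM factors) in RFP (median 62.4) and at 5.92 to 17.96 CPM in CRE (median 12.1), a log2 difference of -2.44 ± 0.17 (SE, adjusted p = 6.98e-11 with edgeR). CRE 1-3 and RFP 2-4 stood apart, with 0.261% and 3.44% of counts from mitochondrial genes against 6.997 to 11.1% in the others and a strong trend of level with GC content. Results that rest on them are given with and without them (19 libraries). Neuron markers were abundant in both groups and summed to 8612 to 10140 CPM in RFP (median 9798) and 5317 to 8624 CPM in CRE (median 6892). In these bulk samples fewer cells of a type and less RNA per cell cannot be told apart.

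Transport kinesins moved in both directions, while each mitotic kinesin that passed the test was lower in CRE. Among the 17 transport kinesins, 5 were higher and 5 lower in CRE at an adjusted p below 0.05 (edgeR quasi-likelihood test, Benjamini-Hochberg over 14488 genes) and 7 were not called, with a median log2 difference of -0.15 (range -0.73 to 0.92). Among the 12 mitotic kinesins, 0 were higher, 6 were lower and 6 were not called, with a median of -1.09 (range -2.10 to -0.22). Every one of the 12 had a negative log2 difference, and 9 of them were lower in each of the 3 cultures taken alone. Kif14, Kif20b and Kifc1 were not, with log2 differences of 0.29, 0.33 and 0.05 in culture 3. The class median was -0.85 without culture 1, -0.91 without culture 2 and -1.45 without culture 3. Over all 14488 genes tested, 6992 had a negative log2 difference and 3829 were lower in each culture. No mitotic kinesin was higher at an unadjusted p below 0.05 with edgeR or with DESeq2, while 9 were lower at that level with each tool. Across all genes tested, 16.4% were called higher and 13.8% lower, and the median log2 difference was 0.02. Of the 8 other kinesins, 2 were lower and 6 were not called (median -0.25). No member had both an absolute log2 difference above 1.3 and a -log10 p above 6, the study's thresholds. In this edgeR comparison 361 genes passed them with the unadjusted p and 201 with the adjusted p. The study applied its thresholds to PyDESeq2 results, so these are not its own counts.

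**Figure D1:**
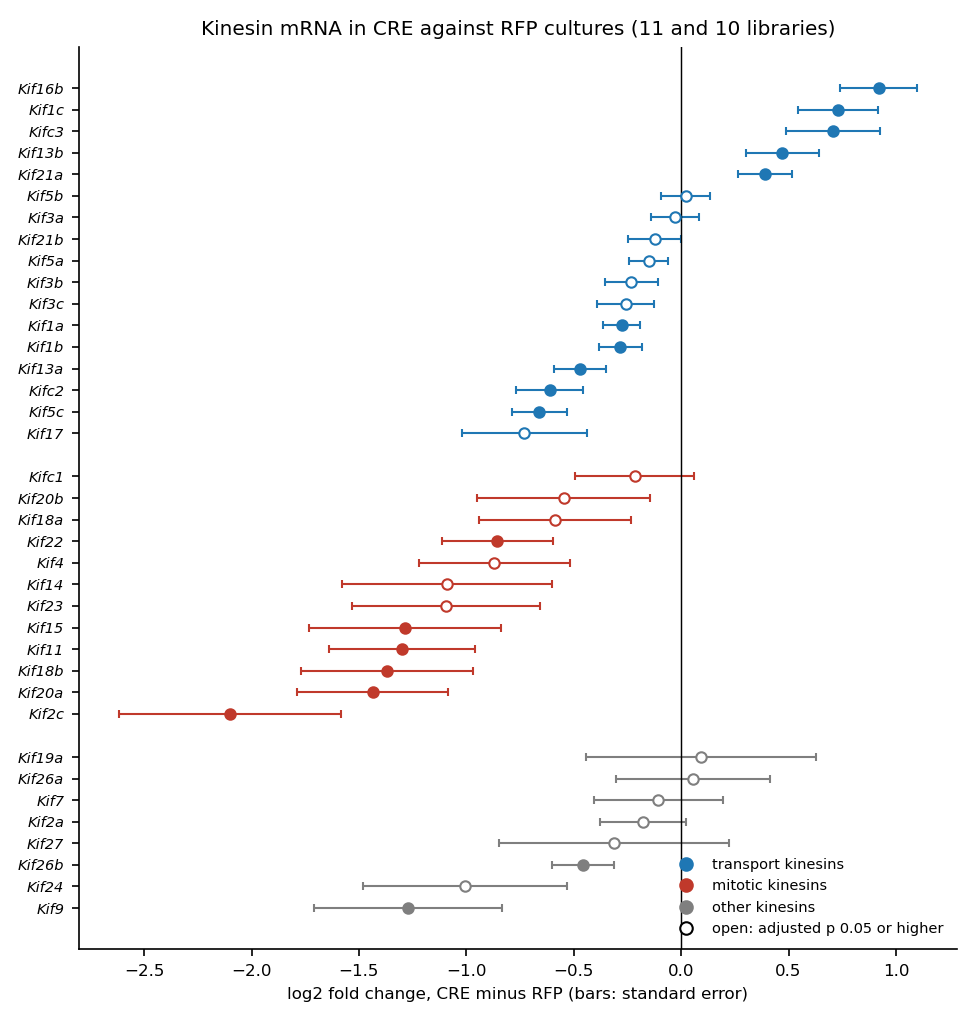
Log2 difference of 37 kinesins between 11 CRE and 10 RFP libraries (x axis, with standard errors), by class, with filled points for an adjusted p below 0.05. The transport kinesins (blue) lie on both sides of 0, from -0.73 to 0.92, and all 12 mitotic kinesins (red) lie below 0.

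The summed level of the 17 transport kinesins was 5514 to 6213 CPM in RFP (median 5796) and 4461 to 5218 CPM in CRE (median 4983), and the groups did not overlap. The 12 mitotic kinesins together reached 54.2 to 127 CPM in RFP (median 94.8) and 22.7 to 83.6 CPM in CRE (median 36.3), with overlap. Mitotic kinesins made up 0.927 to 2.18% of all kinesin counts in RFP (median 1.55%) and 0.421 to 1.58% in CRE (median 0.767%). Transport motors therefore supplied nearly all kinesin RNA in both groups. Counted per gene, CRE did not overlap RFP for 1 of the 37 members, Kif5c, which was lower, and for none in the higher direction. Over all genes tested, 2.08% were lower and 2.64% higher without overlap.

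**Figure D2:**
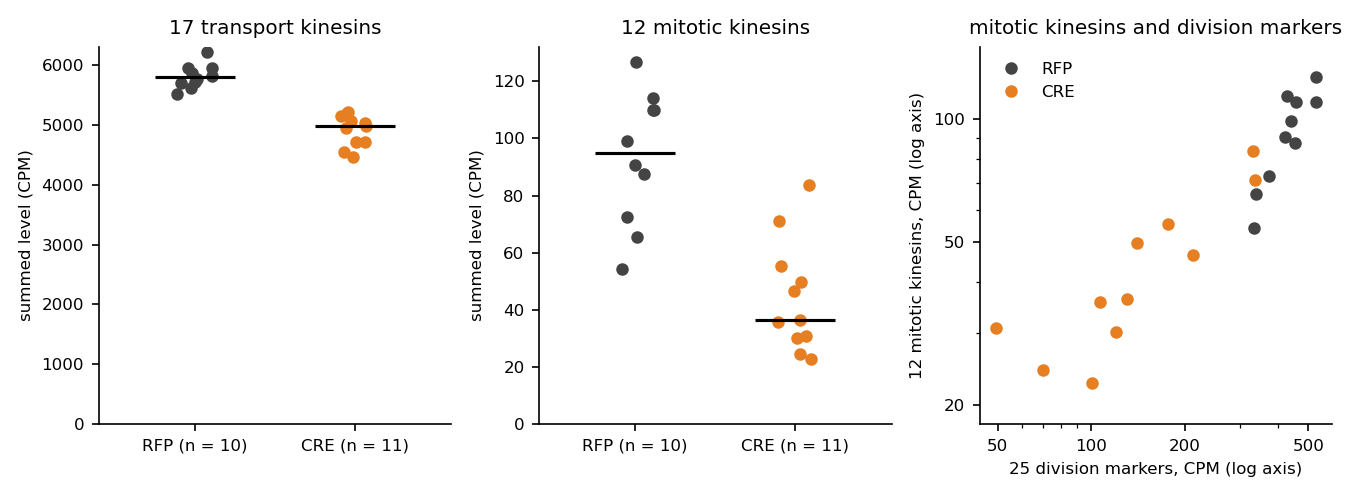
Summed CPM per library of the transport kinesins (left) and mitotic kinesins (middle), with a line at each group's median, and the mitotic sum against the sum of 25 division markers on log axes (right). The transport sums do not overlap between RFP (n = 10) and CRE (n = 11), and libraries with low marker sums have low mitotic kinesin sums.

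Per kilobase of exon, the highest RFP medians among the members belonged to Kif1a (105.5 CPM per kb), Kif5a (82.7), Kif5c (81.2), Kifc2 (57.5), Kif3c (39.8) and Kif1b (33.6), all transport kinesins. Kif11 had the highest per-length level of the mitotic kinesins at 2.71 CPM per kb, and Kif2a that of the other kinesins at 17.4 CPM per kb. The exons of the 3 classes also differed in composition, with a median GC content of 52.7% for transport and 47.2% for mitotic kinesins against 50.1% for all genes tested. With each library's GC trend removed, 14 transport kinesins were called (5 higher and 9 lower) and 8 mitotic kinesins (all lower). In that setting 37.8% of all genes tested were called, in place of 30.2%.

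**Figure D3:**
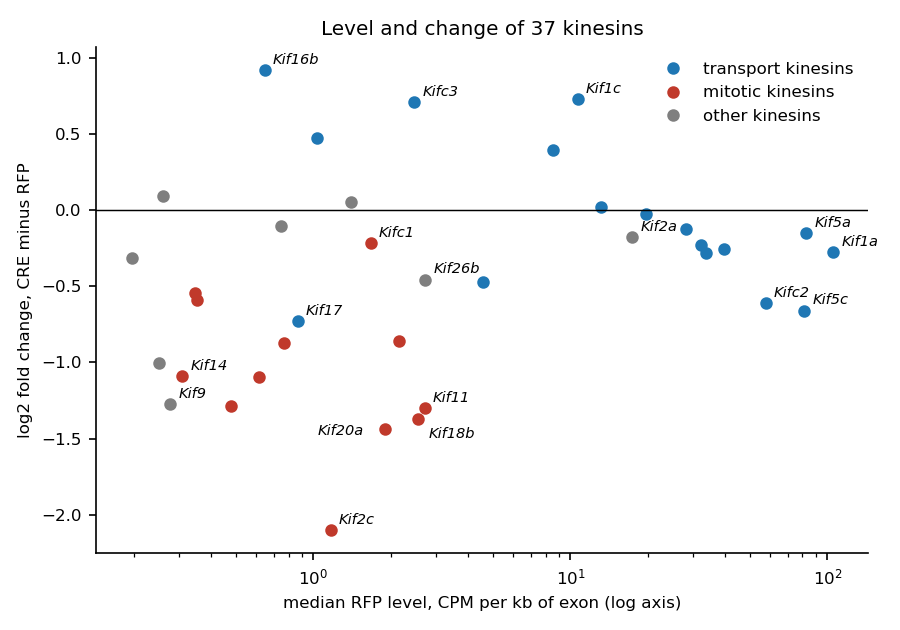
Median RFP level per kilobase of exon (x axis, log scale) against the log2 difference of CRE and RFP (y axis) for the 37 members. Kif1a, Kif5a, Kif5c and Kifc2 have the highest levels and lie below 0, while the 5 transport kinesins called higher, among them Kif16b and Kif1c, have lower levels.

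Kif5a, Kif5b and Kif5c encode the kinesin-1 heavy chains, the motors that carry mitochondria and many vesicles along axons. Kif5c (chr2:49509265-49664791, plus strand, GRCm39) ran from 891 to 1242 CPM over the RFP libraries (median 1156) and from 282 to 818 CPM over the CRE libraries (median 773). All 11 CRE libraries lay below the lowest RFP library, and the lowest value, 282 CPM, was that of CRE 1-3. The log2 difference was -0.66 ± 0.13 (SE, adjusted p = 0.000322), and -0.61 with an adjusted p of 2.36e-09 over the 19 libraries. Kif5a (chr10:127060993-127103180, minus strand) ran from 826 to 1137 CPM in RFP (median 945) and from 658 to 1083 CPM in CRE (median 883). The 2 groups overlapped, and its log2 difference of -0.15 ± 0.09 did not pass (adjusted p = 0.23). Kif5b, the broadly expressed heavy chain, had medians of 169 CPM in RFP and 174 CPM in CRE (0.02, adjusted p = 0.923).

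Kif5c held a smaller median share of the kinesin-1 counts in CRE than in RFP. Its share of the counts of the 3 genes was 41.4 to 52.8% in RFP (median 51.0%) and 19.1 to 48.8% in CRE (median 42.2%). The share of Kif5a was 39.0 to 52.8% in RFP (median 41.3%) and 39.2 to 73.2% in CRE (median 48.1%). The outlying values at 19.1% and 73.2% were those of CRE 1-3, and those at 41.4% and 52.8% of RFP 2-4. Without both libraries the Kif5c share was 50.2 to 52.8% in RFP and 39.5 to 48.8% in CRE, with no overlap. Kif5a shares exon sequence with Dctn2 on the opposite strand over 276 bases, and Kif5c overlaps only a predicted gene over 55 bases.

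**Figure D4:**
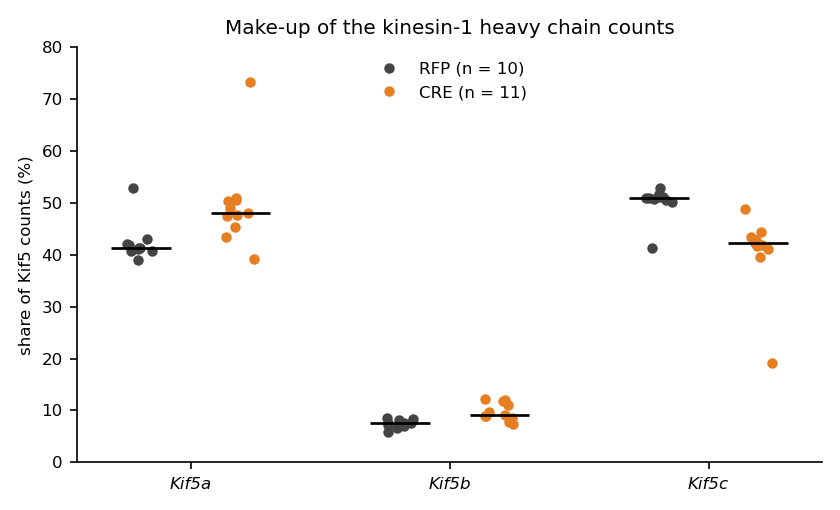
Share of the summed Kif5a, Kif5b and Kif5c counts taken by each gene, per library, with lines at the medians of RFP (n = 10) and CRE (n = 11). Kif5c falls from a median of 51.0% to 42.2%, and 1 CRE library lies at 19.1%.

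The kinesin-3 motors moved in both directions. Kif1a (chr1:92942641-93029752, minus strand), which carries synaptic vesicle precursors and dense-core vesicles, ran from 1081 to 1339 CPM in RFP (median 1148) and from 817 to 1215 CPM in CRE (median 946). In 9 of 11 CRE libraries it lay below every RFP library, and it was lower by a log2 difference of -0.28 ± 0.09 (adjusted p = 0.0167). Kif1b, which carries mitochondria and synaptic vesicle precursors, was lower by the same size (-0.28 ± 0.10, adjusted p = 0.0337), with 10 of 11 CRE libraries below every RFP library, and was not called on sums per culture (adjusted p = 0.0579). Kif1c (chr11:70591046-70622790, plus strand), a motor of dense-core vesicles, rose instead. It ran from 64.5 to 120.5 CPM in RFP (median 85.1) and from 87.4 to 335 CPM in CRE (median 135), and 7 CRE libraries lay above every RFP library. Its log2 difference was 0.73 ± 0.18 (adjusted p = 0.00362). CRE 1-3 held the value of 335 CPM, and over the 19 libraries the difference was 0.59 (adjusted p = 0.000171).

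Kif16b (chr2:142459394-142743546, minus strand), a kinesin-3 that positions early endosomes, had the smallest adjusted p of all members. It ran from 4.36 to 8.20 CPM in RFP (median 6.93) and from 8.04 to 17.5 CPM in CRE (median 11.6). In 10 of 11 CRE libraries it was above every RFP library, and the log2 difference was 0.92 ± 0.18 (adjusted p = 0.000299). The paralogs Kif13a and Kif13b, both motors of endosomal and membrane cargo, moved apart, with Kif13a lower (-0.47 ± 0.12, adjusted p = 0.00406) and Kif13b higher (0.47 ± 0.17, adjusted p = 0.0355). The call of Kif13b was lost under 6 of 13 alternatives, among them sums per culture (adjusted p = 0.122) and each culture left out (0.0907 to 0.186).

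**Figure D5:**
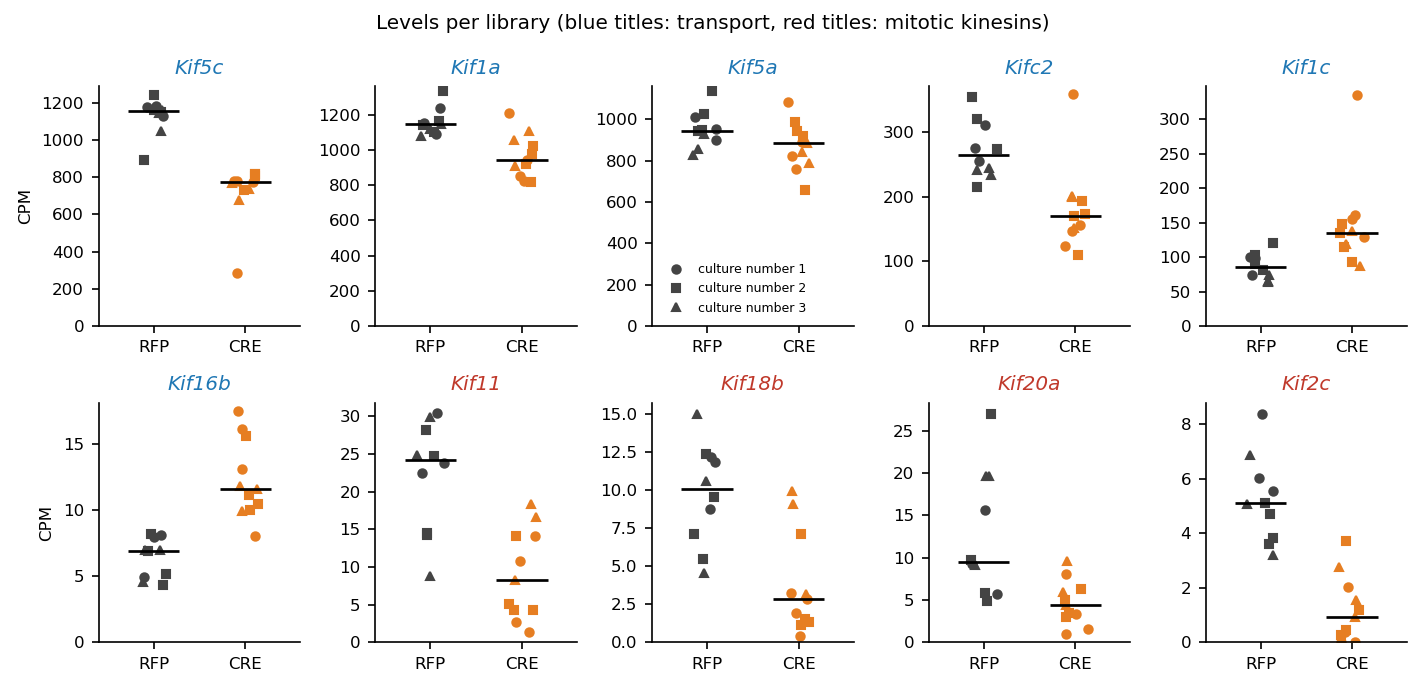
CPM per library of 6 transport kinesins (blue titles) and 4 mitotic kinesins (red titles), with symbols by culture number and a line at each group's median. Kif5c separates the groups completely, Kif16b and Kif1c are higher in most CRE libraries, and Kif2c lies below every RFP library in 10 of 11 CRE libraries.

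None of the kinesin-2 motors was called in the main edgeR comparison of the 21 libraries. With the GC trend removed, Kif3b, Kif3c and Kif17 were called lower (edgeR, adjusted p = 0.0377, 0.0234 and 0.0181). On sums per culture Kif3c and Kif17 were called lower (adjusted p = 0.0481 and 0.0422). Kif3a and Kif3b form a heterodimer that carries cargo with the adaptor Kifap3 and builds cilia, and they had log2 differences of -0.03 (adjusted p = 0.884) and -0.23 (adjusted p = 0.163). Kifap3 itself was called lower (-0.66 ± 0.16, adjusted p = 0.00254 with edgeR), with 10 of 11 CRE libraries below every RFP library. Over the 19 libraries the Kifap3 difference was -0.59 (adjusted p = 2.97e-06). Kif3c, a neuronal partner of Kif3a, had -0.26 (adjusted p = 0.154), and over the 19 libraries it was lower (-0.36, adjusted p = 0.000395). Its highest CRE value, 493.1 CPM, was that of CRE 1-3, and 9 of 11 CRE libraries lay below every RFP library. Kif17, a dendritic motor known for NMDA receptor transport, had the largest negative value among the transport kinesins at -0.73 ± 0.29 (adjusted p = 0.0588) and was called over the 19 libraries (-0.83, adjusted p = 0.0271) and by DESeq2 over the 21 (adjusted p = 0.0411).

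The kinesin-4 motors Kif21a and Kif21b limit microtubule growth. Kif21a was higher (0.39 ± 0.13, adjusted p = 0.0187), with 8 of 11 CRE libraries above and 1 below every RFP library. The library below was CRE 1-3, and over the 19 libraries the difference was 0.43 (adjusted p = 0.000206). Its call was lost over all 23 libraries (adjusted p = 0.109) and without culture 2 (0.271) or 3 (0.0779). Kif21b had a log2 difference of -0.12 (adjusted p = 0.50). The 2 minus-end motors of the transport class, Kifc2 and Kifc3, carry the motor domain near the C terminus. In the translated canonical transcripts, the first match to the ATP-binding P-loop pattern stood at residue 486 of 792 in Kifc2 and 636 of 934 in Kifc3, against residue 86 of 956 in Kif5c and 97 of 1791 in Kif1a.

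Kifc2 (chr15:76543981-76552402, plus strand), a neuronal motor, ran from 216 to 354 CPM in RFP (median 265) and from 110.1 to 359 CPM in CRE (median 171). Of the CRE libraries, 10 were under the RFP range and CRE 1-3 was above it. The log2 difference was -0.61 ± 0.16 (adjusted p = 0.00372), and -0.71 over the 19 libraries (adjusted p = 2.52e-06). Kifc3, a more widely expressed motor of epithelial junctions, was higher (0.71 ± 0.22, adjusted p = 0.0155). Over the 19 libraries its difference was 0.44 (adjusted p = 0.00535).

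Mitotic kinesins had low levels, and those of the spindle and of cytokinesis both fell in part. Their promoters are shown because genes of the G2 and mitotic phases often carry a cell cycle homology region (CHR) close to the start site, to which the DREAM and MuvB complexes bind, together with CCAAT boxes. The sequences are from the RefSeq promoter table (GRCm38.p6, 250 bases before to 50 after each start), which held 29 of the 37 members and not Kif5a, Kif5b, Kif13b, Kif19a, Kif20a, Kif21b, Kifc2 and Kifc3. Printed here are 210 bases, from 180 before to 30 after the RefSeq start, of the 3 mitotic kinesins in the table with the smallest p and of the 2 transport kinesins with the smallest p, placed on GRCm39 by an exact match. They are Kif2c (chr4:117035940-117036149, minus strand), Kif11 (chr19:37364650-37364859, plus strand), Kif18b (chr11:102815921-102816130, minus strand), Kif5c (chr2:49509118-49509327, plus strand) and Kif16b (chr2:142743355-142743564, minus strand). Each is written 5′ to 3′ on the strand of its gene, with capitals for the CHR words TTTGAA or TTCGAA and for CCAAT on either strand. The Kif2c window lies inside the gene as annotated here (chr4:117016830-117039836, minus strand) and not at its 5′ end.
Kif2c: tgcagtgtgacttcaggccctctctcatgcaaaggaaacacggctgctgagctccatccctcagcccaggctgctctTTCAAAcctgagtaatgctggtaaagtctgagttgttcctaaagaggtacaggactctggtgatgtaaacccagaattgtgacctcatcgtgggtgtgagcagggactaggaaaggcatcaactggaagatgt
Kif11: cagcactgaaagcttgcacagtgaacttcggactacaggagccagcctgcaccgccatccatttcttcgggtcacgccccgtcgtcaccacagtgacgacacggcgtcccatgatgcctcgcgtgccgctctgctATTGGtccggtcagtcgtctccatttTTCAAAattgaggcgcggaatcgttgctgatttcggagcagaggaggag
Kif18b: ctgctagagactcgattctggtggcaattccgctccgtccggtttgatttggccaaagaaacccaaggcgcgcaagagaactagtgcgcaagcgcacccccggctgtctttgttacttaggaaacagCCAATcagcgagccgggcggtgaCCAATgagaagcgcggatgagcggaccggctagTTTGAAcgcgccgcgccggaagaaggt
Kif5c: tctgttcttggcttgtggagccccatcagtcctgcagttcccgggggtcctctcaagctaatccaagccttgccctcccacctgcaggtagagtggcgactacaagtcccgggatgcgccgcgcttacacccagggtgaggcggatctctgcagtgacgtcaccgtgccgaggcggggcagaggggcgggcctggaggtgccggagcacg
Kif16b: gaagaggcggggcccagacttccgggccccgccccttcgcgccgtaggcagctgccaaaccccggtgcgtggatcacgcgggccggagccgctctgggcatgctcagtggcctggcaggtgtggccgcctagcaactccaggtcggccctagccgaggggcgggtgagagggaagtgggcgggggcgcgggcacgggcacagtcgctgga

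A CHR word (TTTGAA or TTCGAA, both strands) was present in the 300-base promoter of 10 of 11 mitotic kinesins in the table. Kif2c is among these 10, with a word 103 bases before a RefSeq start that lies inside the annotated gene. A CHR word was present in 1 of 13 promoters of 11 transport kinesins, an alternative promoter of Kif1a, and in 3 of 9 promoters of the other kinesins. Over all 21263 promoters of protein-coding genes in the table the share was 17.6%. A CHR word began within 20 bases of the start in 8 of the 11 mitotic and 0 of the 13 transport promoters. It did so in 1 of the 9 promoters of the other kinesins and in 1.96% of all. This limit was chosen after the positions were seen. In Kif11 the word began 19 bases before the start and a CCAAT box 45 bases before it. CCAAT was present in 7 of the 11 mitotic, 4 of the 13 transport and 3 of the 9 other promoters, against 38.2% of all. Of the mitotic promoters, 7 held both, against 0 of the transport promoters, 3 of the 9 promoters of the other kinesins and 7.11% of all. The E2F words TTTCCCGC and TTTGGCGC were found in 2 mitotic promoters, those of Kif15 and Kif18a, in 0 transport promoters and in 2.02% of all. A match describes the letters of these windows, and no binding was measured.

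Kif11, the bipolar motor that pushes spindle poles apart, and Kif15, which can hold them apart with it, both fell. Kif11 (chr19:37364799-37410307, plus strand) ran from 8.88 to 30.4 CPM in RFP (median 24.2) and from 1.36 to 18.4 CPM in CRE (median 8.30), and 6 CRE libraries lay below every RFP library. The log2 difference was -1.30 ± 0.34 (adjusted p = 0.00447). Kif15 was lower by -1.29 ± 0.45 (adjusted p = 0.0307), a call not made on sums per culture (adjusted p = 0.0789) nor without culture 1 (0.229) or 2 (0.164). Kifc1, a minus-end motor that focuses spindle poles and has its P-loop at residue 411 of 674, had the value closest to 0 in the class (-0.22, adjusted p = 0.61), and it was 0.02 over all 23 libraries.

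Kif2c, a depolymerase that corrects faulty attachments at kinetochores, had the largest log2 difference of all members. Kif2c (chr4:117016830-117039836, minus strand) ran from 3.20 to 8.37 CPM in RFP (median 5.09) and from 0 to 3.72 CPM in CRE (median 0.923). These levels rest on 31 to 91 counts per RFP library and 0 to 49 per CRE library. In 10 of 11 CRE libraries it lay below every RFP library, with a log2 difference of -2.10 ± 0.52 (adjusted p = 0.00275). Kif18b (chr11:102796348-102815956, minus strand), a kinesin-8 that controls astral microtubules, ran from 4.54 to 15.0 CPM in RFP (median 10.1) and from 0.439 to 9.97 CPM in CRE (median 2.86). It lay below every RFP library in 8 CRE libraries (-1.37 ± 0.40, adjusted p = 0.0107), and was not called on sums per culture (adjusted p = 0.0522) nor without culture 1 (0.134) or 2 (0.111). Its paralog Kif18a, which aligns chromosomes, had -0.59 (adjusted p = 0.226). The chromokinesin Kif22, which pushes chromosome arms away from the poles, was lower (-0.86 ± 0.26, adjusted p = 0.0131).

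Among the kinesins of cytokinesis, Kif20a, which brings the chromosomal passenger complex to the midzone, was called. It ran from 4.88 to 27.0 CPM in RFP (median 9.51) and from 0.954 to 9.64 CPM in CRE (median 4.41), and the difference was -1.44 ± 0.35 (adjusted p = 0.00267). The groups overlapped, with 6 CRE libraries below every RFP library. Exons of Kif20a overlap those of Cdc23 on the opposite strand over 2748 bases. Whether the counting used strand was not given in the sources used here, so reads of the 2 genes may have been mixed. Kif23, the motor of centralspindlin, Kif4, which sets the length of the midzone, and Kif14, which acts with citron kinase, had values of -1.10, -0.87 and -1.09 and did not pass (adjusted p = 0.0597, 0.0622 and 0.0949). Kif20b had -0.55 (adjusted p = 0.335).

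The 25 markers of dividing cells, such as Mki67 and the cyclin Ccna2, moved with the mitotic kinesins. They include Cenpe (RFP median 9.94 CPM), itself the gene of a mitotic kinesin, whose symbol falls outside the member rule. Of these 25, 0 were higher, 23 were lower and 2 were not called, with a median log2 difference of -1.39. Mki67 ran from 64.7 to 117.5 CPM in RFP and from 0.136 to 60.2 CPM in CRE, without overlap. Only Mki67 and Ccna2, 2 of the 25 markers, were lower without overlap, beside 2.08% of all genes tested. The marker sum was 334 to 529 CPM in RFP (median 433) and 49.2 to 336 CPM in CRE (median 130). Within each group, libraries with more marker RNA had more mitotic kinesin RNA, with Pearson's r of the log2 sums of 0.91 over the 10 RFP libraries and 0.86 over the 11 CRE libraries (Spearman's rho 0.80 and 0.88). Without the 2 libraries farthest from the median marker sum, r was 0.78 and 0.91. These points share library depth and composition, and r is a description. For each 100 CPM of markers there were 16.2 to 26.8 CPM of mitotic kinesins in RFP (median 21.1) and 21.1 to 62.9 CPM in CRE (median 27.9). The highest of these was CRE 1-3, and over the 19 libraries the CRE values ended at 35.5 CPM. The part of dividing cells in the mitotic kinesin result was not tested.

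Single mitotic kinesins followed the markers to different degrees. After each group's mean was removed, r with the log2 marker sum over the 21 libraries was highest for Kif11 (0.92), Kif18b (0.83), Kif15 (0.83) and Kif14 (0.82) and lay between 0.84 and 0.94 for these genes over the 19 libraries. Some low values depended on the 2 libraries that stand apart. Kif22 had 0.10 and 0.41 and Kifc1 0.16 and 0.61 over the 21 and the 19 libraries. For Kif18a (0.16 and -0.24), Kif20b (0.40 and 0.23) and Kif4 (0.36 and 0.38) no such rise was seen. The median was 0.69 over 21 and 0.60 over 19 libraries for the mitotic kinesins, and -0.15 and -0.05 for the transport kinesins. Between pairs of mitotic kinesins the median r was 0.36, with 59 of 66 pairs above 0, and 0.44 over the 19 libraries, with 54 above 0. For pairs of transport kinesins 65 of 136 were above 0, and 68 over the 19 libraries.

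Beside the transport kinesins, 8 of 16 neuron markers were lower, 1 was higher and 7 were not called, with a median log2 difference of -0.39. Markers of the oligodendrocyte lineage, which includes dividing precursors, had 8 of 11 tested genes lower and none higher, and summed to 692 to 2319 CPM in RFP (median 1826) and 451 to 1981 CPM in CRE (median 832), where CRE 1-3 held the highest value and the next was 1121 CPM. Of the astrocyte markers, 3 were higher and 4 lower of 12. Of the 12 ciliated ependymal markers, 5 were tested and 1 was lower, of 12 endothelial and mesenchymal markers 9 were tested and 2 were higher and 1 lower, and of 12 microglia markers 3 were tested and 1 was higher. The microglia genes Cx3cr1, C1qa and Ptprc had medians of 0 CPM in both groups. The part of these cell types in the kinesin results was not tested.

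Among the other kinesins, Kif26b and Kif9 were lower and none was higher. Kif26b (chr1:178356690-178766765, plus strand), an atypical kinesin without motor activity known from kidney development, ran from 22.5 to 51.0 CPM in RFP (median 40.0) and from 19.6 to 39.1 CPM in CRE (median 28.3), and was lower (-0.46 ± 0.15, adjusted p = 0.0185). Kif9, a kinesin of motile cilia, ran from 0.820 to 6.32 CPM in RFP (median 1.83) and from 0 to 2.40 CPM in CRE (median 0.906), a log2 difference of -1.27 ± 0.44 (adjusted p = 0.0286) at 89 counts or fewer in every library. Its call was lost under 5 of 13 alternatives, among them sums per culture (adjusted p = 0.11). Kif2a (chr13:107094384-107158912, minus strand), the depolymerase that trims axon branches in neurons and belongs to the same family as Kif2c, ran from 77.8 to 159 CPM in RFP (median 135) and from 22.2 to 158 CPM in CRE (median 122.6). The lowest values were those of RFP 2-4 and CRE 1-3, and without them the ranges began at 124 and 98.0 CPM. It was not called (-0.18 ± 0.20, adjusted p = 0.549), and its exons overlap those of Dimt1 on the opposite strand over 3199 bases. Kif24, which acts at the base of cilia, ran from 0.667 to 4.33 CPM in RFP (median 2.40) and from 0 to 2.36 CPM in CRE (median 1.02), with -1.01 ± 0.48 (adjusted p = 0.116). Kif7, Kif19a, Kif26a and Kif27 had log2 differences from -0.31 to 0.09 and adjusted p from 0.712 to 0.934.

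Cargo adaptors and partners of kinesins moved in both directions. Of 35 listed, 33 were tested, 3 were higher and 9 lower, with a median log2 difference of -0.17, against 16.4% and 13.8% of all genes tested. Hap1, an adaptor of kinesin-1 and dynactin, was at a median of 148 CPM in RFP and 49.6 CPM in CRE (-1.30 ± 0.23, adjusted p = 0.000117). Its differences were -1.66, -1.99 and -0.04 in cultures 1, 2 and 3, and it was not called on sums per culture (adjusted p = 0.0578). Kifbp, which binds and inhibits several kinesins, ran from 128 to 168 CPM in RFP and from 99.3 to 122 CPM in CRE without overlap (-0.41 ± 0.08, adjusted p = 0.000285). Mapk8ip2, a JNK scaffold carried by kinesin-1, and Ppfia2, a liprin that binds Kif1a, were lower by -0.52 and -0.83 (adjusted p = 0.000646 and 0.00181). Of the kinesin-1 light chains, Klc4 was higher (0.63 ± 0.22, adjusted p = 0.0307 with edgeR) but not called on sums per culture (adjusted p = 0.055). Klc1 (-0.14, adjusted p = 0.386) and Klc2 (-0.06, adjusted p = 0.861) were not called over the 21 libraries. Klc3 was not tested. Over the 19 libraries Klc1 was called lower (-0.22, adjusted p = 0.0184) and Klc2 was not called (-0.25, adjusted p = 0.0735).

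The dynein and dynactin list, the machinery of transport in the opposite direction, had 2 of 27 genes higher and 4 lower (median -0.13) beside the same shares of all genes, 30.2% in both directions together. The light chain Dynll1 ran from 197 to 305 CPM in RFP and from 95.7 to 174 CPM in CRE, without overlap (-1.04 ± 0.11, adjusted p = 5.4e-08). Its paralog Dynll2 was higher (0.39 ± 0.10, adjusted p = 0.00458). The adaptor Bicd2 ran from 90.8 to 118 CPM in RFP and from 120.4 to 209.8 CPM in CRE, also without overlap (0.42 ± 0.10, adjusted p = 0.00183). The intermediate chain Dync1i1 was lower (-0.51 ± 0.14, adjusted p = 0.00544), and the heavy chain Dync1h1 had -0.05 (adjusted p = 0.791).

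The difference between CRE and RFP was also compared between the 3 culture numbers. The interaction term was called for 0 of the 37 members (edgeR quasi-likelihood F test), as for 0.0069% of all genes, and 2 members, Kif14 and Kif7, had an unadjusted p below 0.05 (0.00809 and 0.0299). Kif14 had log2 differences of -2.91, -1.82 and 0.29 in cultures 1, 2 and 3, and Kif7 of -0.64, -0.40 and 1.20. Kif5c was lower in each culture (-0.86, -0.50 and -0.63) and Kif16b higher in each (0.94, 0.92 and 0.84). Kif11 was lower by -1.84, -1.57 and -0.56.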

How the data were processed

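RNA of 23 libraries (12 CRE, 11 RFP) was prepared by the authors with Illumina Stranded mRNA Prep and sequenced on a NovaSeq6000. The authors deposited whole-number counts per gene without normalization. The submitters' processing notes name bcl2fastq 2.20.0.422, STAR 2.7.8a and featureCounts 1.5.0-p1 with GRCm39, and the study names Ensembl release 110. The strand setting and the treatment of multi-mapping reads were not given in the sources used here, so counts of overlapping or near-identical genes are uncertain.

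Here genes were named with the GENCODE M39 annotation of GRCm39, which named 56323 of 56941 genes. CRE 3-3 and RFP 3-2 were left out, as in the count table the study supplies. The study's Methods text names CRE 1-3 and CRE 3-3 instead, which was an alternative. The 21 libraries were compared with edgeR 4.0.16 in R 4.3.3 (filterByExpr, TMM, robust glmQLFit, glmQLFTest), with Benjamini-Hochberg adjustment over 14488 genes, without a culture term. The comparison was tested on simulated data. CPM used TMM factors over the genes passing the filter in all 23 libraries, and correlations used log2(CPM + 0.5). Alternatives covered the libraries, DESeq2 1.42.0, its size factors, the filter, replicate blocks, sums per culture, cultures left out and GC trends. Python used numpy 2.4.6, pandas 2.3.3, scipy 1.17.1 and matplotlib 3.10.9.

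The members, classes and gene lists were chosen with earlier results of these data known. Full values are given, in each class, for the 4 members with the smallest p and the 2 with the highest level per exon length in RFP, and for up to 4 partner and 4 dynein genes with the smallest p. Klc1, Klc2, Klc4, Kifap3 and Dync1h1 fall outside this rule and were added after their values were seen.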

Additional observations from a re-analysis of the deposited data

Results flagged for a closer look

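In a group of 10 libraries, 1 value can lie far from the others relative to the range of the group. Of the 37 members tested in this way over the RFP libraries, 5 had such a value, and chance gives about 1 in 20 groups. RFP 2-4 held 3 of them, at 77.8 CPM for Kif2a (nearest library 124 CPM), 522.5 CPM for Kif21b (nearest 389 CPM) and 376 CPM for Kif3c (nearest 321 CPM). This library had 3.44% of counts from mitochondrial genes and a Spearman correlation of level with GC content of 0.53. The highest RFP value of Kif9 was 6.32 CPM in RFP 1-3 (nearest 2.45 CPM), and that of Kif17 was 15.9 CPM in RFP 2-3 (nearest 9.18 CPM). None of these was tested for its cause.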

How the results depend on the processing

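No log2 difference of a called member changed sign under any of the 13 alternatives. Transport kinesins called numbered 10 in the comparison reported and 7 to 14 under the settings that kept every culture, and mitotic kinesins 6 and 4 to 9. With a culture left out in turn they numbered 3 to 10 and 2 to 8, with the lowest counts without culture 2, where 14.3% of all genes tested were called in place of 30.2%. The other kinesins called, 2 as reported, fell to 1 over all 23 libraries, with no filter on low counts, with sums per culture and with library number as a replicate block, and numbered 0 to 2 with a culture left out (edgeR, 1 at an unadjusted p below 0.05 without culture 2). Of the 18 members called, Kif5c, Kif16b, Kif1c, Kif20a and Kif2c were called under all 13, and the other 13 members lost the call without culture 2. The median of the mitotic kinesins was -1.45 without culture 3. With no filter the median of all genes moved to 0.14. The replicate block by culture number gave 10 transport, 9 mitotic and 2 other kinesins called, and that by library number 9, 8 and 1. The calls gained with culture number, Kif4, Kif14 and Kif23, were not made on sums per culture (adjusted p = 0.135, 0.40 and 0.0662), which called 4 mitotic kinesins. Libraries of the same culture number did not deviate together across groups (r of 0.03, 0.02 and 0.14 in cultures 1, 2 and 3), and not every culture correlated best with its own number, so the numbers were not taken as pairs. In each of the 21 libraries 6 of the 12 mitotic kinesins had fewer than 100 counts, and whether this depth set which were called was not tested.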
